A study of Mus musculus with 73 samples.

Results

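The 5 arrays described here compared mammary tumors of the p53 null transplant model with normal mammary gland. They were chosen by their label, p53-/-;transplant, and are 5 of the 73 arrays of the study and 5 of its 38 direct arrays, on which tumor RNA (Cy5) and normal RNA (Cy3) were hybridised together. Both RNAs came from Balb/c mice: the tumors carried p53-/- and transplant in their label, and the normal glands were wild-type. The other direct arrays covered p53fp/fp;WAP-cre tumors (4 arrays) and Brca1 Co/Co;MMTV-cre;p53 tumors (5 arrays), both on C57BL6/129sv. The FVB models were MMTV-PyMT (5), MMTV-ras (5), MMTV-her2/neu (5), MMTV-myc (4) and, with a viral antigen that binds p53 and Rb, C3(1)/SV40 T/t-antigen (5). In the floxed models Cre recombinase is driven by the whey acidic protein promoter (WAP) or the mouse mammary tumor virus promoter (MMTV), which are active in mammary epithelium, whereas the label p53-/- names no Cre. The transplant's donor, its host, the age of the animals and whether normal RNA was pooled are not given in the sources used here. Nothing says that the 5 arrays came from separate animals. The p-values rest on the spread between arrays within the 8 direct models, pooled, which may be technical. The remaining 35 arrays compared tissues with a universal reference RNA, and 8 of them, 4 C3(1)/SV40 T/t-antigen tumors and 4 normal FVB glands, are used below as a second reading of tumor against normal gland.

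The p53 protein is a transcription factor that is stabilised after DNA damage or oncogene activity and switches on genes for cell cycle arrest, DNA repair and apoptosis. One of its targets, Cdkn1a, encodes the cyclin-dependent kinase inhibitor p21, through which p53 also holds down the genes of DNA synthesis and mitosis. The mouse mammary gland is a thin tree of luminal and basal epithelium in a large pad of fat, so a tumor and a whole normal gland differ in their mixture of cells. In such bulk RNA, fewer cells of a type and less RNA per cell cannot be told apart.

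Several mitosis genes that are described below rose together, and their promoters are shown because genes of this group share known control elements: the CCAAT box, bound by the factor NF-Y, and the cell cycle genes homology region TTTGAA, through which MuvB complexes including DREAM act. The 250 bases before the annotated start of 4 of them are printed 5′ to 3′ on the gene's strand, from RefSeq on GRCm38.p6, with both motifs in capitals on either strand. On the opposite strand CCAAT is read as ATTGG, and TTTGAA is found written as TTCAAA. These 2 motifs do not overlap each other in these windows.
Cdk1, chr10:69352913-69353162, minus strand: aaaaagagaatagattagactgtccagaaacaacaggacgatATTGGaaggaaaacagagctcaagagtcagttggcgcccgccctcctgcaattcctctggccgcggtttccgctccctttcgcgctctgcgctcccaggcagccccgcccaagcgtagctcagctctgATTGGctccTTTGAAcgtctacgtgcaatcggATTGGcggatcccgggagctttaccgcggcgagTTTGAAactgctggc
Cks2, chr13:51644982-51645231, plus strand: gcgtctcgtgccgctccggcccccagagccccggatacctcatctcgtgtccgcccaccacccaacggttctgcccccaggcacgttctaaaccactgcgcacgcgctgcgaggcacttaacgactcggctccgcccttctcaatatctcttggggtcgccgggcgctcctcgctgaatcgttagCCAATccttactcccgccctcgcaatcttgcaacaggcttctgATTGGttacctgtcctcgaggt
Cenpa, chr5:30666636-30666885, plus strand: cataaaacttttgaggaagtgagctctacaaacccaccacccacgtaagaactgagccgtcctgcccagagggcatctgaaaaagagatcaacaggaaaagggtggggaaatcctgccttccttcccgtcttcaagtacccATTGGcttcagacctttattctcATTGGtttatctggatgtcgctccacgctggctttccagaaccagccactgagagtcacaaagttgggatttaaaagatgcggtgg
Mad2l1, chr6:66534971-66535220, plus strand: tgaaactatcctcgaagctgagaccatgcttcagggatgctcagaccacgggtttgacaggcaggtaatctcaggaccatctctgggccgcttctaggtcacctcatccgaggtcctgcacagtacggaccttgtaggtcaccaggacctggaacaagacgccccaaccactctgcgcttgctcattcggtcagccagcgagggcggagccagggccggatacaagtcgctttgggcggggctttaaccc
The Cdk1 window held 3 CCAAT boxes and 2 TTTGAA elements, those of Cks2 and Cenpa held 2 CCAAT boxes each and no TTTGAA, and that of Mad2l1 held neither. Of the 13 mitosis genes that rose, 9 had a promoter that was searched here, and the others were left out of the search. Of these 9, 6 held CCAAT and 2 held TTTGAA. The risen mitosis genes that were left out are not in these counts, so the counts do not stand for all 13. Over all 27025 genes of the table, 37.5% held CCAAT and 18.3% held TTTGAA in a window of the same length. These genes were not filtered as the 9 were, so the percentages are not a matched background for them. Whether either motif was more frequent among the risen mitosis genes was not tested. A match is a description of the letters and does not show that a factor binds there.

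Values are log2 ratios of tumor over normal gland, with each array centred on its own median, so that 1 means 2-fold higher in the tumor and -1 means 2-fold lower. A gene rose or fell where its mean over the 5 arrays passed an adjusted p under 0.05 in limma, whose standard errors (SE) pool the spread within each of the 8 direct models. Of 5768 genes tested, 1197 (20.8%) passed: 557 rose (9.66%) and 640 fell (11.1%). At 2-fold or more, 130 rose (2.25%) and 193 fell (3.35%). The counts of gene lists below are to be read against the 20.8% of all genes that passed, with 9.66% rising and 11.1% falling. Without array 2 the count was 786, and without array 3, which stands apart from the others as described below, it was 975. On the values as deposited, whose array medians ran from -0.19 to 0.08, 344 rose and 486 fell, so the share of rises among the calls was 41.4% in place of 46.5%. Of the rises, 262 kept their call whichever array was left out and 344 kept it on the deposited scale; of the falls, 368 and 484 did. Each array gave between 7657 and 7934 values. Correlations between arrays, across genes and thus not over independent replicates, were 0.57 to 0.65 for pairs with array 3 and 0.69 to 0.83 for the other pairs.

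The design did not swap the dyes: every tumor was in Cy5. A dye bias of a gene and its change in the tumor therefore cannot be told apart on the direct arrays. The reference arrays carried tumor and normal gland in the same dye (Cy3), in separate hybridisations, but only for the C3(1)/SV40 T/t-antigen model. Their values, called the same-dye values below, are given beside the genes where they bear on this. Unlike the direct arrays, the reference arrays were not centred on their medians.

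Lcn2 rose most in the transplanted tumors, 13 of 33 mitosis genes rose, and most measured genes of fat (12 of 15), skeletal muscle (15 of 19) and the respiratory chain (11 of 20) fell. Lcn2, which encodes the siderophore-binding protein lipocalin 2, read 4.01, 5.49, 3.04, 5.68 and 3.37 on arrays 1 to 5. All 5 arrays were far above 0, with a mean of 4.32 ± 0.68 (SE; 20-fold; limma adjusted p = 1.22e-05). The same-dye value of Lcn2 in the C3(1) tumors was 1.04. At the other end stood Tnnc2, troponin C of fast skeletal muscle, which read -4.68, -5.72, -5.75, -6.24 and -5.63. It fell by 5.60 ± 0.47 (SE; 48.6-fold lower; adjusted p = 3.85e-11), and no array was above -4.68.

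**Figure D1:**
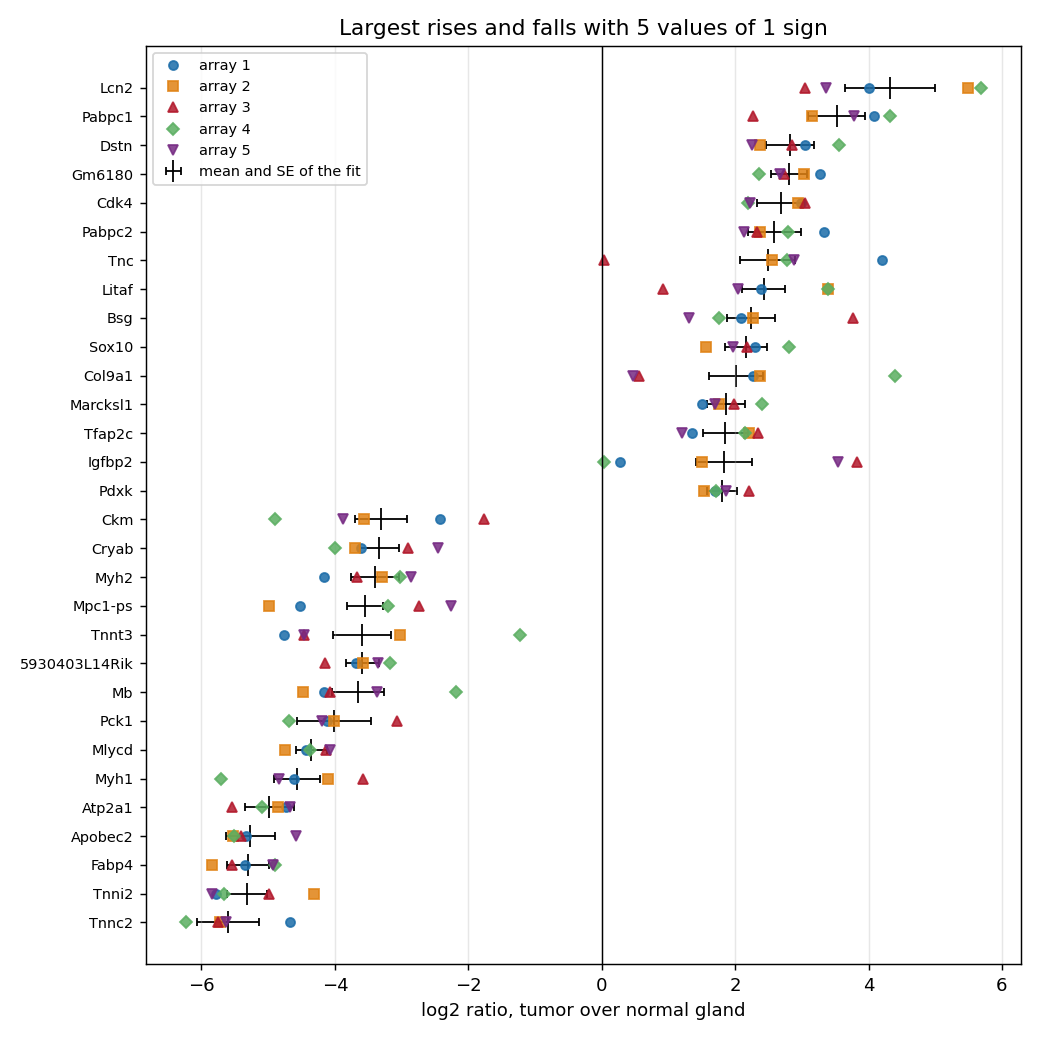
Log2 ratio of tumor over normal gland (x axis) for the 15 largest rises and 15 largest falls among genes with 5 values of 1 sign and an adjusted p under 0.05. Each symbol is 1 array, and the black mark and bar are the mean and standard error of the limma fit. The 5 arrays of Mlycd sit close together, whereas Igfbp2 reads 0.03 on array 4 and 3.83 on array 3.

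The array table names no feature as Trp53, so the deleted gene itself was not checked here. Of 35 listed p53 target genes, 15 were measured: 1 rose and 2 fell, 3 of 15 against 20.8% of all genes tested, and their median was 0.02, against -0.00 (-0.004) over all genes tested. Ccng1, which encodes cyclin G1, read -1.02, -1.20, -1.04, -1.59 and -0.15. It was low on 4 arrays and near its normal level on array 5 (mean -0.999 ± 0.26 SE, limma adjusted p = 0.005). Tnfrsf10b, the death receptor for TRAIL, read -0.55, -0.64, -0.24, -0.29 and -0.60 and fell by 0.47 ± 0.11 (adjusted p = 0.00147). Both kept their calls whichever array was left out.

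Plk2, a polo-like kinase, read 0.75, 0.31, 0.63, 0.22 and 0.33 and rose by 0.45 ± 0.14 (adjusted p = 0.0211). Its call was lost without array 1 (0.37) or array 3 (0.40), and on the deposited scale. Cdkn1a, the gene for p21, read 0.20, 0.06, -0.23, -0.29 and -0.20, on both sides of 0 (mean -0.09 ± 0.33 SE, adjusted p = 0.874). Its group means in the other direct models ran from 0.17 in MMTV-myc to 1.52 in Brca1 Co/Co;MMTV-cre;p53 tumors. Gadd45a, a stress gene that binds PCNA, read 0.22, 1.06, 0.39, 0.26 and 0.41, above 0 on every array and highest on array 2, and did not pass (adjusted p = 0.0964).

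Sesn1, which encodes sestrin 1, read -1.76, -1.48, 2.30, -1.07 and -0.34. It was low on 4 arrays and above the normal gland on array 3 alone, and did not pass (adjusted p = 0.249). Igfbp3, Phlda3 and Trp53inp1 also had values on both sides of 0. Of 18 listed regulators of p53, 8 were measured and 1 rose: Chek2, the checkpoint kinase CHK2, read 0.38, 0.27, 0.89, 0.18 and 0.41 (mean 0.43 ± 0.14 SE, adjusted p = 0.0293). Its call was lost without array 1, 3 or 5 and on the deposited scale. Mdm4, an inhibitor of p53, had 4 values from -0.68 to 0.05 and did not pass (adjusted p = 0.207).

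**Figure D2:**
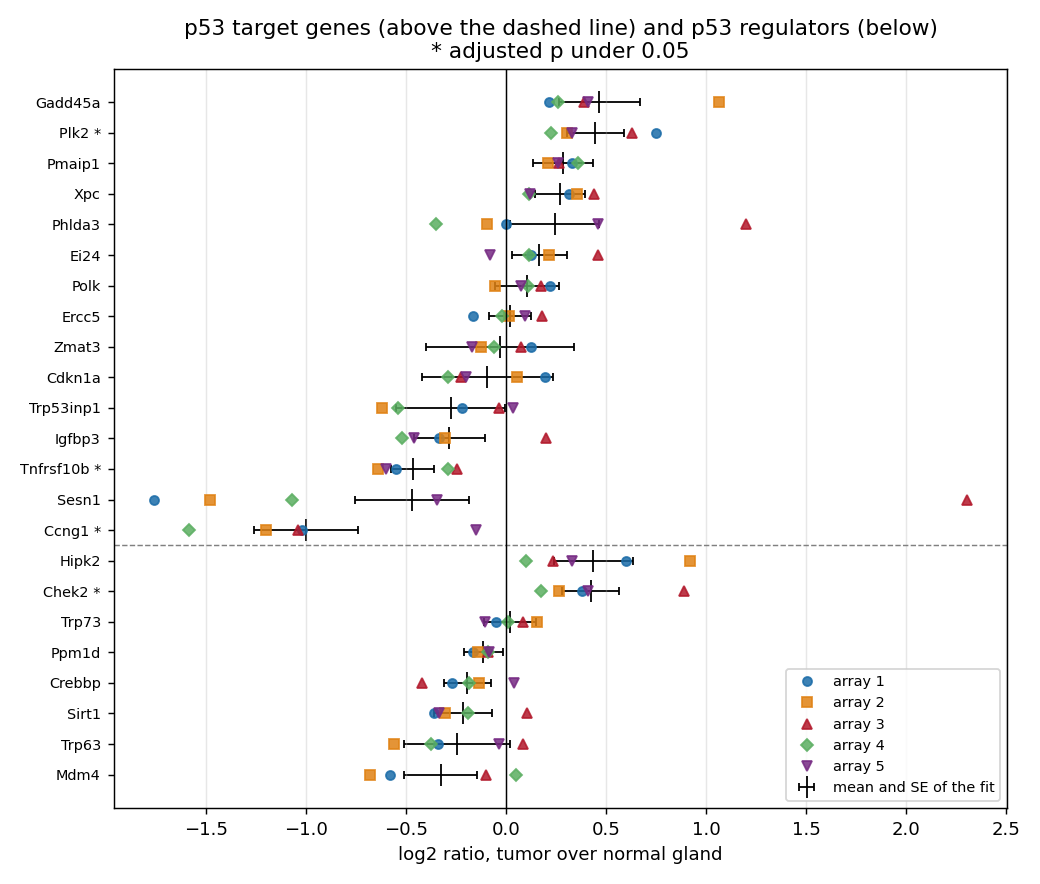
Log2 ratio of tumor over normal gland (x axis) for the 15 measured p53 target genes and the 8 measured p53 regulators, with 1 symbol per array and the mean and standard error of the fit in black. Most genes lie near 0; Ccng1 is low on arrays 1 to 4, and Sesn1 is high on array 3 only.

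Cell division genes were higher in the tumors. Of 33 measured mitosis genes 13 rose and none fell, with a median of 0.36 over the list and array medians of 0.22 to 0.47; 9 rose on the deposited scale. Kif20a, a kinesin of cytokinesis, rose most (mean 1.67). Mad2l1, a spindle checkpoint protein, read 2.12, 1.54, 0.55, 0.93 and 1.64 and rose by 1.36 ± 0.22 (SE; 2.56-fold; limma adjusted p = 1.51e-05). Arrays 1, 2 and 5 were higher than arrays 3 and 4.

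Cks2, a subunit that activates cyclin-dependent kinases, was also higher on arrays 1, 2 and 5, with 1.77, 1.43, 0.80, 0.78 and 1.39 (mean 1.24 ± 0.25 SE, adjusted p = 0.000311). Cdk1, the kinase that starts mitosis, differed from both with 1.14, 0.90, 1.76, 0.64 and 0.40 (mean 0.97 ± 0.20 SE, adjusted p = 0.000414), highest on array 3. Cenpa, the histone variant of centromeres, read 1.52, 0.73, 1.48, 1.14 and 0.38 (mean 1.05 ± 0.21 SE, adjusted p = 0.00038). Mad2l1, Cks2, Cdk1, Cenpa, Kif20a, Hmmr and Cdc25c kept their calls whichever array was left out. Their same-dye values in C3(1) tumors were also high, at 1.93 for Mad2l1, 1.81 for Cks2, 1.54 for Cdk1 and 1.54 for Cenpa.

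Mki67, the gene of the Ki-67 antigen, rose less: 0.48, 0.31, 0.84, 0.14 and 0.33 (mean 0.42 ± 0.15 SE, adjusted p = 0.0444). Its call was lost without array 1, 2, 3 or 5, with means of 0.32 to 0.45, and on the deposited scale. Birc5, Top2a and Aurkb had means of 0.18, 0.59 and 0.29 and did not pass.

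Of 26 measured DNA replication genes 4 rose and none fell (median 0.25), against 20.8% of all genes tested that passed in either direction. All 4 kept their calls without any 1 array and on the deposited scale. Rrm1, the large subunit of ribonucleotide reductase, was the most even of them with 1.34, 1.11, 1.34, 1.40 and 1.29 (mean 1.29 ± 0.25 SE, adjusted p = 0.000194). Dbf4, which activates the origin-firing kinase Cdc7, read 1.83, 1.22, 0.72, 0.72 and 1.65 (mean 1.23 ± 0.17 SE, adjusted p = 7.36e-07), again higher on arrays 1, 2 and 5. Mcm3, a subunit of the replicative helicase, and Rrm2, the small reductase subunit, had means of 0.98 and 0.89; Mcm2, Mcm4, Mcm6 and Mcm7 had means of 0.09 to 0.46 and did not pass. Of 11 chromatin genes 4 rose, including Hells, a remodelling helicase, at 1.91, 1.22, -0.05, 1.69 and 0.56 (mean 1.06), near 0 on array 3 only. Of 11 DNA repair genes 1 fell (Nbn, -0.53, lost without array 2).

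Of 15 measured cell cycle control genes 4 rose and 2 fell, where 9.66% of all genes tested rose and 11.1% fell. Cdk4, the kinase partner of D cyclins, read 2.99, 2.95, 3.05, 2.20 and 2.22 (mean 2.68 ± 0.35 SE, 6.42-fold, adjusted p = 6.38e-07). All 5 arrays were high, whereas the same-dye value of Cdk4 in C3(1) tumors was 0.07 ± 0.17 (SE), against 1.35 on the direct C3(1) arrays. Ccnd1, cyclin D1, read 1.05, 1.00, 0.79, -0.13 and 1.44 (mean 0.83 ± 0.29 SE, adjusted p = 0.0364), with array 4 apart. Its call held only without array 4, and its same-dye value in C3(1) tumors was -0.86. Skp2 and Wee1 rose by 0.72 and 0.70 (adjusted p = 0.00336 and 0.000903), and both kept their calls without any 1 array. E2f5 was 1 of the 2 that fell (-0.683 from 4 values, limma adjusted p = 0.00938). Neither of the 2 falls kept its call whichever array was left out. Rb1, the retinoblastoma gene, read -0.41, -0.21, -0.61, -0.27 and -0.33, below 0 on every array, and just missed the threshold (mean -0.37 ± 0.14 SE, adjusted p = 0.0502). Brca1 had a mean of -0.07 (adjusted p = 0.873).

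Of 14 measured epithelial identity genes 4 rose and none fell; the list's array medians were 1.06, 1.37, -0.25, 0.82 and 0.44, so array 3 stood below 0. Krt8, the luminal keratin 8, read 1.94, 2.35, -2.04, 2.63 and 1.501. Its level was high on 4 arrays and below the normal gland on array 3 (mean 1.28 ± 0.45 SE, adjusted p = 0.0404), and the call was lost without array 1, 2, 4 or 5, with means of 0.94 to 1.22, but not without array 3. Dsg2, a desmosomal cadherin, was even by comparison with 1.36, 1.30, 0.71, 1.00 and 0.94 (mean 1.06 ± 0.22 SE, adjusted p = 0.000485), and its call held without any 1 array. Epcam and Cdh1 had means of 1.02 and 0.73 and did not pass.

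Of 14 basal and squamous genes 3 rose, against 20.8% of all genes tested that passed in either direction. The 3 were Itgb4 and Itga6, the pair of hemidesmosome integrins, and Cdh3, P-cadherin. Itgb4 read 1.22, 1.23, 2.48, 1.49 and 0.85 (mean 1.45 ± 0.42 SE, adjusted p = 0.0103), with its highest value on array 3, and lost its call without that array (1.20). Itga6 read 0.38, 1.38, 0.67, 2.38 and 0.95 (mean 1.15 ± 0.27 SE, adjusted p = 0.00216) and kept it. The basal keratins Krt5, Krt15 and Krt17 had means of 0.10 to 0.27 and did not pass, nor did Trp63 at -0.24. Of 14 luminal and milk genes 1 rose, Mfge8 (0.98; lost without array 1, 2 or 4), and the luminal factors Gata3 and Foxa1 had means of 0.14 and -0.07. Csn2, beta-casein, ran from -2.45 on array 1 to 2.25 on array 4 with no common direction (adjusted p = 0.578).

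Among genes of the mesenchymal transition list, 5 of 18 rose and 1 fell. Sox10, a transcription factor of neural crest and mammary progenitors, read 2.30, 1.57, 2.17, 2.81 and 1.97 (mean 2.17 ± 0.32 SE, adjusted p = 3.29e-06), high on all arrays. Tnc, the matrix glycoprotein tenascin C, read 4.21, 2.56, 0.03, 2.77 and 2.88 (mean 2.49 ± 0.41 SE; 5.62-fold; adjusted p = 2.07e-05), and only array 3 was at the level of normal gland. Cd44, the hyaluronan receptor, had the same outline with 2.44, 1.84, -0.12, 1.45 and 1.91 (mean 1.503 ± 0.31 SE, adjusted p = 0.000404). The same-dye values in C3(1) tumors were 0.07 for Sox10, -0.08 for Tnc and 1.45 for Cd44. Mmp14 rose by 1.14. Snai2, a repressor of E-cadherin, also rose, with 0.896, 0.405, 1.58 and 1.109 on arrays 1 to 4. Its mean was 0.998 ± 0.275 (SE, limma adjusted p = 0.00807). Twist1, Zeb1 and Zeb2, which also repress E-cadherin, had means of -0.02, -0.37 and -0.48 and did not pass. Mmp2 fell by 0.79, a call lost without array 2, 3, 4 or 5 (-0.86 to -0.55) and on the deposited scale.

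Stromal genes moved both ways. Of 19 fibroblast and matrix genes 5 fell and 1 rose (median -0.22). Gsn, the actin-severing protein gelsolin, read -2.84, -3.30, -2.72, -4.47 and -3.12, low on every array (mean -3.29 ± 0.30 SE; 9.80-fold lower; adjusted p = 2.28e-10), with a same-dye value of -2.60 in C3(1) tumors. Ogn (osteoglycin), Pdgfra and Mfap5 fell by 2.06, 1.02 and 0.64, whereas the collagens Col1a1 and Col1a2 had means of -0.67 and -0.01 and did not pass. The small proteoglycan Bgn rose by 1.04, a call lost without array 1 (0.83). In the basement membrane list, 3 of 13 genes rose (Agrn 1.47, Col18a1 0.99 and Lama5 0.67, the last lost on the deposited scale) and 2 fell (Nid1 -1.80 and Hspg2 -0.82, the last lost without array 4). Of 14 endothelial genes 2 fell, Ramp2 (-0.64) and Cdh5 (-0.45); the Cdh5 call was lost without array 1, 2, 3 or 4. Of 8 smooth muscle and myoepithelial genes 1 rose, Actg2 (1.75, lost without array 3), and 1 fell, Tpm2 (-1.69, lost without array 4), and the list's median was 1.02 on array 3 against -0.17 to 0.17 on the others.

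Growth signalling genes moved both ways, with 5 of 22 rising and 5 falling. Dusp6, the phosphatase that ERK signalling induces, read 1.79, 1.88, 1.64, 1.56 and 1.32 (mean 1.64 ± 0.22 SE, adjusted p = 9.05e-07), even across arrays, with a same-dye value of 1.46 in C3(1) tumors. Fgfr1, a receptor for fibroblast growth factors, had 4 values of 3.53, 3.28, 2.54 and 0.70 on arrays 2 to 5 (mean 2.51 ± 0.42 SE, adjusted p = 3.86e-05); array 5 was the lowest, and the same-dye value was -0.19. Akt1 and Pik3r1, of the PI3 kinase pathway, rose by 1.02 and 0.82, while Pik3ca and Mtor fell by 0.49 and 0.47, the latter a call lost without array 2 (-0.36). Igf1, the growth factor made by stroma and fat, read -1.26, -1.47, -1.05, -0.82 and -0.76 and fell by 1.07 ± 0.16 (adjusted p = 3.19e-06).

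Myc read 0.77, 0.56, 0.53, 1.05 and 0.82 (mean 0.75 ± 0.16 SE, adjusted p = 0.000746), above normal gland on all arrays, and its call held without any 1 array; its same-dye value in C3(1) tumors was -0.09. Of 15 nucleolus and MYC-linked growth genes 5 rose, Myc among them, with Tfrc, the transferrin receptor, at 1.61 and Nolc1 and Fbl, nucleolar proteins, at 0.90 and 0.80. Of 17 ribosomal protein genes 2 rose (Rpl8 1.12 and Rps14 0.81, the latter lost without array 3); the same-dye values of the pair were -0.64 and -0.84. The poly(A)-binding protein genes Pabpc1 and Pabpc2, which are near copies of each other and can share a probe signal, read from 2.27 to 4.33 and from 2.13 to 3.33 on the 5 arrays, with same-dye values of -0.16 and -0.33. Of 18 chaperone genes 4 rose and 1 fell, of 20 proteasome genes 1 rose, of 13 endoplasmic reticulum stress genes 1 rose, and of 9 translation factor genes 3 rose and 1 fell. Over all genes tested, 9.66% rose and 11.1% fell.

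The counts of immune genes that passed are read against the 20.8% of all genes tested that did. Of 23 macrophage and myeloid genes 3 rose (the lysosomal proteases Ctsd, 1.23, and Lgmn, 0.99, and the complement chain C1qc, 0.78) and 1 fell (the mannose receptor Mrc1, -0.94); the C1qc and Mrc1 calls were lost without array 2. The defining markers Adgre1, Cd68, Itgam and Lyz2 had means between -0.01 and 0.07. Of 13 T and NK cell genes Cd8a, the CD8 co-receptor, fell and was even at -0.62, -0.59, -0.36, -0.52 and -0.59 (adjusted p = 0.000815), and Cd3d rose by 0.40, a call lost without array 1, 2 or 4. None of the 7 MHC class II genes passed in limma, and 1 had an unadjusted p under 0.05. Of 11 B and plasma cell genes 1 fell, Vpreb3 (-0.27), lost without array 1, 2, 3 or 4. Of 20 interferon response and MHC class I genes 2 rose (Ifit1 0.98 and Rsad2 0.70) and 1 fell (Tap2 -0.71), the Rsad2 call being lost without array 4. Among 21 cytokine and chemokine genes 4 rose, and 2 of the 4 kept their calls whichever array was left out. The 4 included Il1b (1.00) and Tnfrsf11b, the decoy receptor osteoprotegerin (1.72 from 4 values). Tnfrsf11b read 1.76, 2.39, 2.88 and -0.14 on arrays 1, 2, 4 and 5, so array 5 was not high. Of 15 apoptosis genes Bid (1.05) and Bak1 (0.62, lost without array 1, 2 or 4) rose and Casp1 (-1.69) fell. Of 12 immediate early genes 3 rose and 1 fell, of 17 Wnt and Notch genes 2 fell, of 15 nerve genes 2 fell, of 16 genes of proteases and their inhibitors 2 rose and 1 fell, and of 2 erythroid genes 1 rose and 1 fell.

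Genes of fat and energy metabolism fell. Of 15 measured adipocyte genes 12 fell and none rose, with a median of -1.52 over the list; 10 fell on the deposited scale. Fabp4, the fatty acid carrier of adipocytes, read -5.34, -5.84, -5.54, -4.89 and -4.93 (mean -5.31 ± 0.31 SE; 39.6-fold lower; adjusted p = 1.03e-13). Adipoq, the hormone adiponectin, read -3.87, -3.48, -3.12, -3.40 and -2.65 (mean -3.31 ± 0.27 SE; 9.89-fold lower; adjusted p = 1.63e-11). Both were low on every array, whereas Lpl, the lipase that frees fatty acids for uptake, ran from -5.38 on array 1 to -0.76 on array 3 (mean -2.84, adjusted p = 2.45e-06). The list's array medians were -1.61 and -1.73 on arrays 1 and 2 and -0.78, -1.13 and -0.65 on arrays 3 to 5.

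Of 12 genes of fatty acid synthesis and oxidation 11 fell. Acadm, which oxidises medium-chain fatty acids, read -3.80, -3.34, -3.29, -3.28 and -2.80 (mean -3.30 ± 0.19 SE; 9.85-fold lower; adjusted p = 8.22e-15). Mlycd, malonyl-CoA decarboxylase, outside the fixed list but among the largest falls, stayed between -4.75 and -4.08 (mean -4.35, adjusted p = 3.88e-16). Fasn, fatty acid synthase, fell by 1.59, least on array 3 (-0.36). Of 20 respiratory chain genes 11 fell and 1 rose (Uqcrfs1, 1.19), and of 9 citric acid cycle genes 5 fell. Cycs, cytochrome c, read -2.08, -1.36, -2.04, -1.05 and -1.21 (mean -1.55 ± 0.21 SE, adjusted p = 1.3e-06), and Sucla2, a subunit of succinyl-CoA ligase, fell by 2.08. The same-dye values of Fabp4, Adipoq, Acadm, Fasn and Cycs in C3(1) tumors were -1.90, -2.88, -1.40, -2.60 and -1.23. Of 11 glycolysis and hypoxia genes 3 rose, Pfkl (0.95), Hk1 (1.01, but -0.12 on array 3) and Slc2a1 (0.60, lost without any 1 of the arrays).

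Skeletal muscle genes fell furthest. Of 19 measured 15 fell and none rose, every call held without any 1 array and on the deposited scale, and the median was -3.19. Tnni2, troponin I of fast fibres, read -5.78, -4.31, -4.98, -5.67 and -5.84 (mean -5.32 ± 0.30 SE, adjusted p = 3.54e-15). Atp2a1, the calcium pump of fast fibres, read -4.74, -4.85, -5.54, -5.10 and -4.68 (mean -4.98 ± 0.37 SE, adjusted p = 4.5e-12). The muscle list was low in every direct model, with a median over arrays from -3.79 in Brca1 Co/Co;MMTV-cre;p53 tumors to -1.54 in MMTV-ras and MMTV-PyMT tumors and -2.40 here. The same-dye values of Tnnc2, Tnni2, Atp2a1 and Myh1 in C3(1) tumors were -0.42, 0.06, 0.70 and -0.06. Cox6a2 and Cryab, which muscle also expresses, fell by 3.19 and 3.33. The part of muscle in the respiratory chain counts was not tested.

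**Figure D3:**
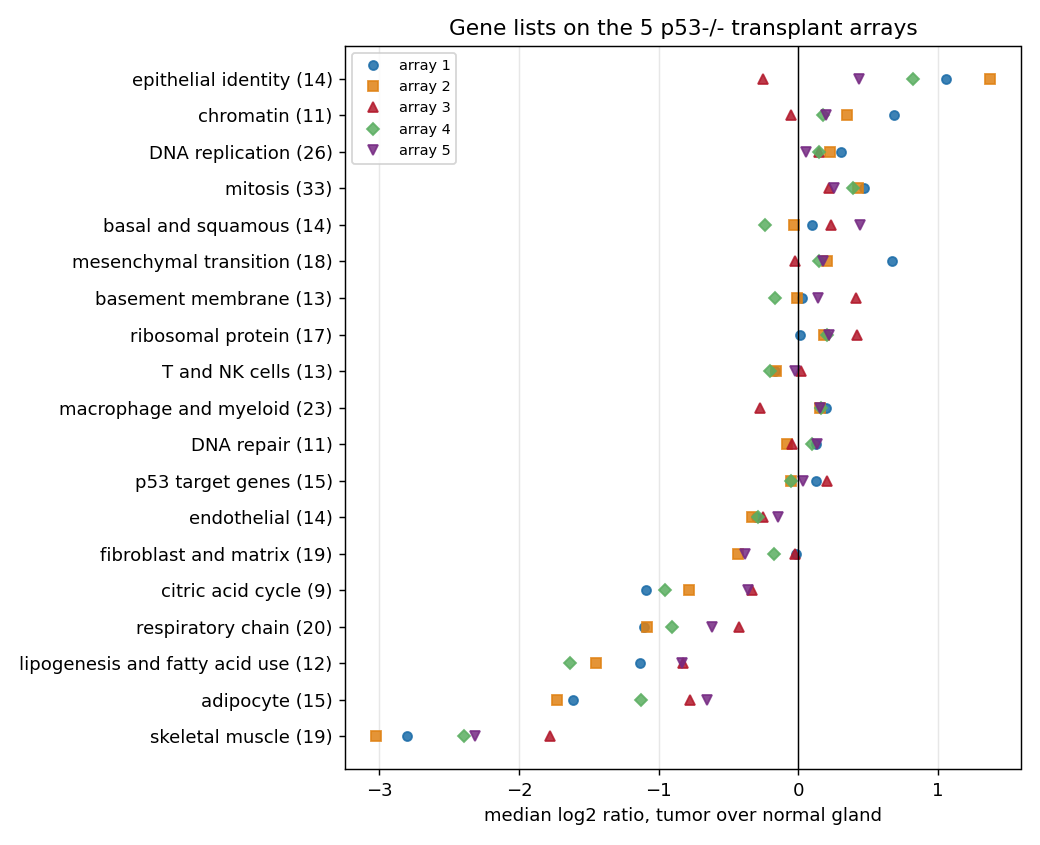
Median log2 ratio of tumor over normal gland (x axis) of 19 gene lists on each of the 5 arrays, with the number of measured genes in parentheses. Muscle, fat and mitochondrial lists lie below 0 on every array; the epithelial list is above 0 on 4 arrays and at -0.25 on array 3.

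Array 3 stood farthest from the others: of 5743 genes with 4 or 5 values, 390 had 1 array far from the rest by Dixon's criterion (6.79%, where chance gives about 1 in 20), and that array was array 3 for 173 of them and arrays 1, 2, 4 and 5 for 60, 34, 50 and 73. On 115 of these genes array 3 was the high one, and 28 of the 115 (24.3%) lay on chromosome 10, which holds 4.82% of the genes checked. The median gene of chromosome 10 read 0.21 higher on array 3 than on the median of the other 4 arrays. That was the highest of the 100 medians of the 5 arrays over the autosomes and the X chromosome, and the next was 0.10. These places were looked up in RefSeq, which held 5706 of the 5768 genes; the runs below were chosen after their values were seen and carry no test.

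In 1 run of 12 consecutive measured genes of chromosome 10, from Wasf1 to Atg5, 11 were highest on array 3. Cd164, a sialomucin, read -0.41, -0.90, 3.39, -0.05 and -0.08. Its neighbour Sesn1 was given above, Ostm1 read 2.37 on array 3 and -1.08 to -0.45 elsewhere, and Mtres1 read 2.92 there and -1.44 to -0.86 elsewhere. Farther along the same chromosome, Mif, the macrophage migration inhibitory factor, read 0.29, 0.41, 3.96, 1.26 and 0.37, and its rise (mean 1.26) was lost without array 3 (0.58). Cnn2, Rps15 and Oaz1 read 3.56, 3.32 and 2.79 on array 3; of these Cnn2 rose (mean 1.34) and kept its call without that array.

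**Figure D4:**
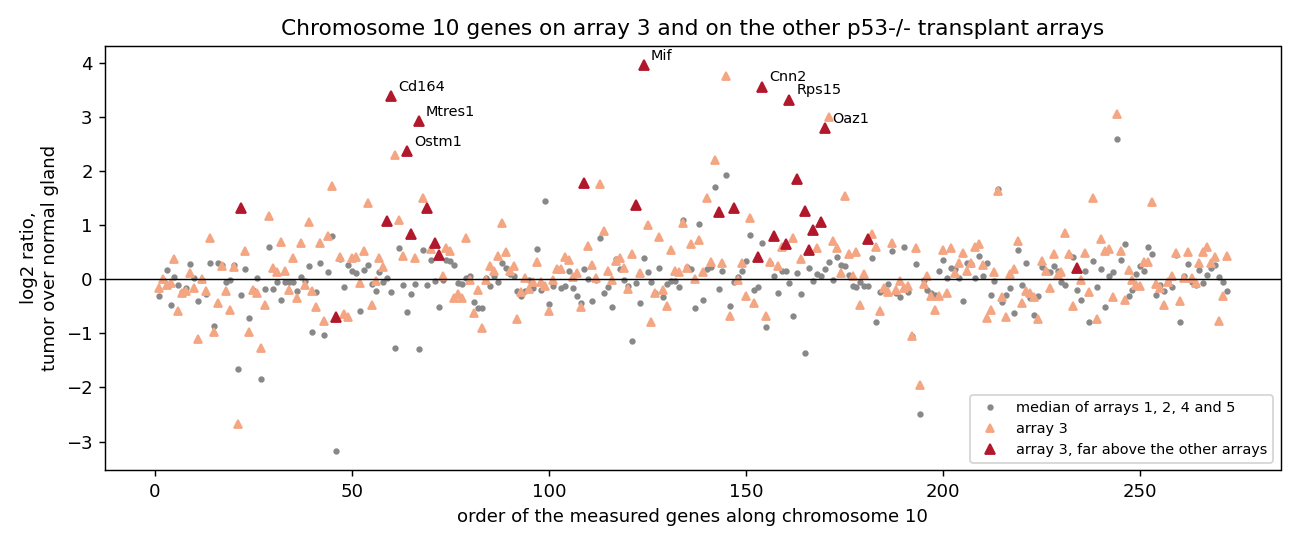
Log2 ratio of tumor over normal gland (y axis) for 272 measured genes in their order along chromosome 10 (x axis, rank). Triangles are array 3, with the genes far above the other arrays in dark red and those above 2 named, and grey dots are the median of the other 4 arrays. The named genes form 1 group from Cd164 to Mtres1 and another from Mif to Oaz1.

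Parts of other runs were high on other arrays. Of 6 consecutive measured genes of chromosome 6, from Mdfic to Tspan12, 2 were highest on array 1 and 4 on array 4. On chromosome 6, Tes, a focal adhesion protein, read 4.93, 0.60, -0.08, 3.99 and 0.59, and Capza2, an actin-capping subunit, read 3.91, 4.25, -1.52, 4.34 and -0.03. Both are high on arrays 1 and 4, and Capza2 also on array 2. Cav1, caveolin 1, which lies between them, read 1.14, -3.67, -2.44, -1.91 and -1.09, so that array 1 alone was above 0. The means of 2.01, 2.19 and -1.59 passed, but Tes lost its call without array 1 (1.28) or 4 (1.51), Capza2 without array 1, 2 or 4 (1.65 to 1.76), and Cav1 without array 2 (-1.07) or 3 (-1.38). Tes also spread widely in the Brca1 Co/Co;MMTV-cre;p53 (0.86 to 6.47) and p53fp/fp;WAP-cre tumors (0.78 to 5.26), and stayed between -0.53 and 0.55 in the C3(1)/SV40 T/t-antigen tumors.

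On chromosome 8, Lamp1, a lysosomal membrane protein, read 0.36, 0.52, -0.53, -0.22 and 4.31, high on array 5 alone. Of 7 consecutive measured genes around it 4 were highest on array 5, Tmco3 (1.08) and Gas6 (1.22) among them. The nearer 2810030D12Rik and Dcun1d2, between Lamp1 and Tmco3, read 0.12 and 0.04 there and were not. On the X chromosome, Tmsb4x, Prps2 and Msl3 read 1.12, 1.83 and 1.22 on array 4 and no more than 0.45 on the others. Agr2, a secretory protein of mucous epithelia, was high on array 5 only (4.93, against -1.17 to 0.82), and Aqp5, a water channel, on arrays 1, 2 and 4 (2.57, 4.08 and 2.79, against 0.24 and -0.08; mean 1.92, a call lost without array 2).

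Set against the 4 p53fp/fp;WAP-cre tumors, the 5 transplant tumors differed in 16 of 5768 genes (0.277%), of which 4 were higher (0.0693%) and 12 lower (0.208%). At an unadjusted p under 0.05 in this limma contrast the count was 820, so the 16 do not show that the other genes were alike. The genes that passed against normal gland were largely shared: 358 also rose in the p53fp/fp;WAP-cre tumors, 64.3% of the 557 and 34.5% of the 1039 that rose there, and 404 also fell, 63.1% of the 640 and 63.2% of the 639. Over all genes tested, 18% rose and 11.1% fell in the p53fp/fp;WAP-cre tumors. One gene that rose in the transplant tumors fell in the others, and 1 did the reverse. Strain, normal gland and the kind of p53 loss differ together between these models and cannot be told apart. Such sharing was not particular to the p53fp/fp;WAP-cre tumors. In the Brca1 Co/Co;MMTV-cre;p53 tumors 341 (61.2%) of the rises and 444 (69.4%) of the falls recurred, where 26.2% of all genes rose and 21.2% fell.

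Ly6e, a lymphocyte antigen of the Ly6 family, had 4 values from -0.91 to 0.87 in the transplant tumors and lay between 2.41 and 3.65 in the p53fp/fp;WAP-cre tumors (difference -3.20 ± 0.49 SE, adjusted p = 0.000988). S100a6, a calcium-binding protein, read 1.42, 1.22, 0.25, 0.35 and 0.58 against 2.27 to 3.93 (difference -2.42 ± 0.46, adjusted p = 0.0061). Nubp1, an iron-sulfur cluster assembly factor, and Ccl8, a monocyte chemokine, were lower by 2.42 and 1.62. Cap1, which binds actin and adenylyl cyclase, read 1.61, 0.97, 1.22, 0.75 and 1.35 against -1.29 to -0.79 (difference 2.21 ± 0.37, adjusted p = 0.00214), and Erdr1 was higher by 2.04. No array of 1 group overlapped the other for any of these 6 genes, and all 6 kept their calls when any 1 array of either group was left out. Each of the other 10, with S100a9 (-3.09) and Glycam1 (1.99) among them, lost its call without array 3 of the transplant tumors, as it did without some of the other arrays, and the count fell to 6 without that array and rose to 47 without array 1 of the p53fp/fp;WAP-cre tumors.

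Against the 5 Brca1 Co/Co;MMTV-cre;p53 tumors, whose label also names p53, 1021 genes differed (17.7%), 490 higher (8.5%) and 531 lower (9.21%). With no overlap between arrays there were 268 higher (4.65%) and 216 lower (3.74%). Of all genes tested, 2.84% passed the test and were higher by 2-fold or more, and 2.36% were lower by as much. With only the arrays of these 2 groups in the fit, the count was 330. Strain and normal gland differ with the model in this contrast too and cannot be told apart from it. Mitosis and replication genes were lower in the transplant tumors, 9 of 33 and 9 of 26 (1 mitosis gene was higher), and 7 of 23 myeloid genes were lower. Birc5, the mitotic protein survivin, ran from -0.30 to 0.52 here and from 0.91 to 3.95 over 3 values there (difference -2.44 ± 0.38 SE, adjusted p = 3.04e-05). Mmp12, the macrophage elastase, ran from 0.09 to 0.43 here and from 0.96 to 4.43 there (difference -2.18 ± 0.32, adjusted p = 1.09e-05), and S100a8 and Pirb were lower by 2.31 and 2.14.

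Fat genes were higher, that is, they had fallen less: 8 of 15 adipocyte genes were higher and 1 lower. Cidec, a lipid droplet protein, ran from -1.61 to 0.20 here and from -5.20 to -2.91 there (difference 3.31 ± 0.35, adjusted p = 8.13e-08). Pvalb, the calcium buffer of fast muscle, and Fabp7, a fatty acid-binding protein, were higher by 3.51 and 3.39. Hcst, the signalling adaptor DAP10, was even in both groups, from -0.54 to -0.09 here and from -4.09 to -2.83 there. Birc5 could not be fitted without array 1, 2 or 5 of the Brca1 Co/Co;MMTV-cre;p53 tumors, since at least 3 values per group were required; the calls of Cidec, Pvalb, Fabp7, Hcst, Mmp12, S100a8 and Pirb held.

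**Figure D5:**
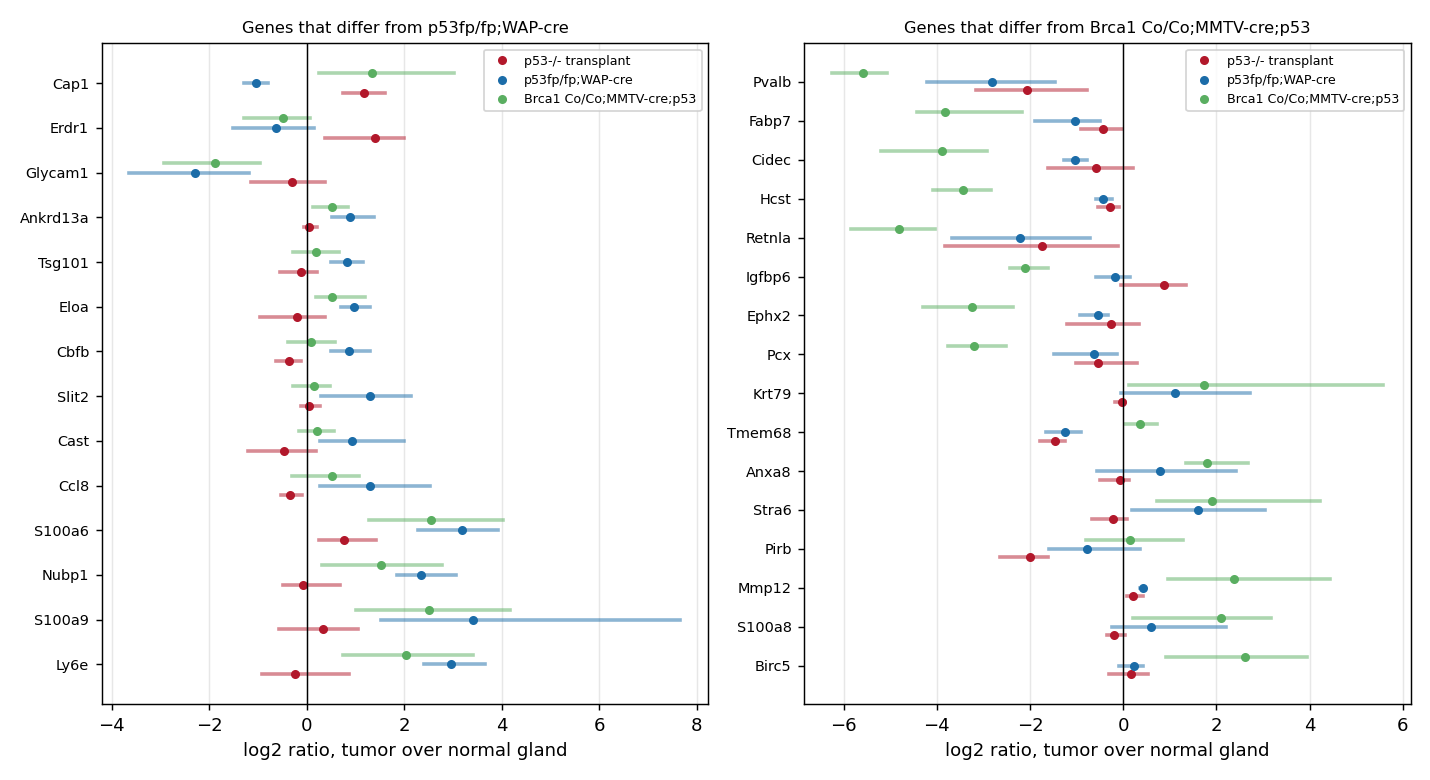
Log2 ratio of tumor over normal gland (x axis) for genes whose arrays do not overlap between the p53-/- transplant tumors and the p53fp/fp;WAP-cre tumors (left, 14 genes) or the Brca1 Co/Co;MMTV-cre;p53 tumors (right, the 8 largest differences each way). Dots are group means and bars run from the lowest to the highest array. On the left the mean of Ly6e is -0.24 in the transplant tumors, 2.96 in the p53fp/fp;WAP-cre tumors and 2.03 in the Brca1 Co/Co;MMTV-cre;p53 tumors; on the right Pvalb, Fabp7 and Cidec lie lowest in the Brca1 Co/Co;MMTV-cre;p53 tumors.

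Against the mean of the other 7 direct models, 395 genes differed (6.85%), 157 higher (2.72%) and 238 lower (4.13%). The transplant arrays were the only Balb/c arrays among the direct models, so strain, normal gland and model cannot be told apart here. None of the 157 lay above all 33 other arrays, and 3 of the 238 lay below all of them (0.052%). Pirb, an inhibitory immunoglobulin-like receptor of myeloid and B cells, ran from -2.64 to -1.61, against -1.60 to 1.28 on the other arrays (difference -1.35 ± 0.27 SE, adjusted p = 0.00206). Pml, the scaffold of nuclear bodies that bind p53, ran from -0.28 to -0.04, against 0.19 to 1.68 (difference -0.84 ± 0.17, adjusted p = 0.00342). Med20, a Mediator subunit, ran from -0.37 to -0.21, against -0.14 to 0.63 (difference -0.53 ± 0.10, adjusted p = 0.00147). Med20 and Pml were even over the 5 arrays and close to 0, whereas Pirb was about 1 log2 unit lower on array 3 than on array 1. The count fell to 147 without array 2, 152 without array 3 and 175 without array 4 of the transplant tumors.

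The same-dye arrays of C3(1)/SV40 T/t-antigen tumors measured 5752 of the genes. Of the 557 that rose in the transplant tumors, 181 (32.5%) also rose there, 18.3% of the 991 that did (17.2% of all genes), while 48 (8.62%) fell. Of the 639 that fell and were measured there, 318 (49.8%) also fell, 26.9% of the 1183 that did (20.6% of all genes), while 35 (5.48%) rose. On the direct arrays of the same C3(1) model, which share the dye arrangement, 330 (59.2%) of the rises and 289 (45.2%) of the falls recurred, where 22.4% of all genes rose and 19.5% fell. Over genes, the correlation of the same-dye change with the transplant mean was 0.39, and with the direct C3(1) mean 0.50. Gm6180, Cdk4, Bsg, Tnc and Sox10 passed on both sets of direct arrays, with C3(1) direct means of 1.76, 1.35, 1.26, 1.71 and 1.15, and had same-dye values of -0.14, 0.07, -0.28, -0.08 and 0.07. These genes are given for their low same-dye values and do not stand for the 330 shared rises. Other genes that rose in the transplant tumors, such as Mad2l1, Cks2, Dusp6 and Cd44, had high same-dye values, given above.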

How the data were processed

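Two-colour cDNA arrays were analysed from the series' table of log2 ratios, deposited by the authors for 9596 features. Image analysis, background correction, normalization and centring are not given in the sources used here. The log base and the direction are not stated in the table: base 2 was taken because the rule in the series text (interaction p and fold) then passed 2638 features, the number that text gives, against 3770 with base e. On direct arrays the labels give tumor Cy5 and normal Cy3, and the ratio was read as tumor over normal. Reference arrays were read as tissue over reference: 18 of 18 adipocyte markers then exceeded, in normal mammary gland, their average over lung, prostate and seminal vesicle.

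Features with 1 gene symbol (7486, while 483 had several and 1627 none) were averaged by gene. Each direct array was first centred on its median, and the reference arrays were not centred. Of the 7486 features, 7395 were renamed through gene IDs and 91 kept the deposited symbol. Of 454 genes with several features, 30 had 2 or more features past the threshold, and in 10 of these 30 they went in opposite directions. All 38 direct arrays entered 1 limma fit (limma 3.58.1, R 4.3.3) with 8 model means, eBayes and Benjamini-Hochberg adjustment over 5768 genes with at least 3 values in the transplant arrays; the scripts were tested on simulated data. Contrasts between models came from the same fit. The C3(1)/SV40 T/t-antigen tumors and normal glands on reference arrays were fitted separately. SE is the fit's standard error. No depth applies to arrays; their number limits the precision.

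The named genes are the 15 largest rises and falls with 5 values of 1 sign, up to 5 genes of each list with the smallest p, the p53 targets, the 8 largest non-overlapping differences each way in each contrast, the 12 genes with the largest spread, and other list members given with their values; genes in chromosome runs were added after their values were seen. Members and gene lists were chosen with earlier results of these data known. For arrays with the same number in different models, deviations correlated at -0.24 to 0.19 (33 pairs, 10 over 0.1). Arrays with unlike numbers were not compared, so these values cannot decide whether the numbers pair arrays. The main fit did not pair them.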

Additional observations from a re-analysis of the deposited data

Results flagged for a closer look

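Single arrays lay far from the other 4 for 13 of the 269 named genes, where chance gives about 1 in 20. Array 3 was high for Mif (3.96), Mtres1 (2.92) and Ifit1 (1.33), and low for Krt8 (-2.04) and Ctss (-0.93). Array 5 was high for Lamp1 (4.31) and was the least negative for Lpo (-0.088), Acaa2 (-0.84) and Apobec2 (-4.58). Array 4 was high for Cnn1 (0.54) and Stmn3 (-0.07), array 2 for Gadd45a (1.06), and array 1 was low for Krt79 (-0.18). Among list medians, array 3 was high for smooth muscle and myoepithelial genes (1.02) and low for macrophage and myeloid genes (-0.27), and array 5 was high for B and plasma cell genes (0.076).

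By the limma contrasts, the transplant tumors differed from the p53fp/fp;WAP-cre tumors in 16 genes, from the Brca1 Co/Co;MMTV-cre;p53 tumors in 1021 and from the mean of the other 7 models in 395. Among the 1688 features with several gene symbols or none, which entered no comparison above, 353 (20.9%) passed the same test, 207 higher and 146 lower in the tumors. Of the 6260 features with 1 symbol, 1296 (20.7%) passed.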

How the results depend on the processing

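The count of 1197 genes against normal gland was 2154 with quantile normalization, 2530 with array quality weights and 786 to 1120 without 1 array. It was 797 with arrays 2, 3 and 4 alone, whose array database numbers in the labels are consecutive, and 220 with arrays 1 and 5 alone; with these 2 arrays Nrarp (0.033) and Cav1 (0.029) changed sign. The 16 genes that differed from p53fp/fp;WAP-cre were 7 on deposited values, 74 with quantile normalization, 117 with quality weights, 0 with arrays 1 and 5 alone (344 genes at an unadjusted p under 0.05 in limma) and 6 to 47 without 1 array. The 1021 that differed from Brca1 Co/Co;MMTV-cre;p53 were 330 with only these groups' arrays, 526 with quality weights, 583 and 252 with the array subsets of 3 and 2, and 689 to 1136 without 1 array. The 395 that differed from the other 7 models were 844 with quantile normalization, 184 with a value on every array, 1468 with quality weights, 174 and 2 with the subsets, and 147 to 273 without 1 array. With the replicate number as a block the counts were 1166 against normal gland and 8 against p53fp/fp;WAP-cre. Whether the numbers pair the arrays could not be decided. Smaller subsets hold fewer arrays by construction; the cause of the other shifts was not tested.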
